A study of Mus musculus with 4 samples.

Results

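A set of 10 genes of the TGF-beta pathway was followed in mouse melanoma cells: the ligands Tgfb1, Tgfb2 and Tgfb3, the receptors Tgfbr1 and Tgfbr2, the signal transducers Smad2, Smad3 and Smad4, and the SKI repressors Ski and Skil. They were chosen by name as the ligands, receptors, SMADs and repressors of the pathway, and these 10 rows were found among the 53465 genes of the count table. All 10 carried enough reads to be tested. The cells were B16-F10, a pigmented mouse melanoma line used to study metastasis, here fluorescent, infused into zebrafish and afterwards grown in IMDM medium with 10% fetal bovine serum. In 2 libraries the cells were labelled as having extravasated, that is, as having left the blood vessels of the fish, and in 2 as not having done so, the control named in the series' design text. The labels name no genotype other than the line, and no drug. All 4 labels carry the same growth text, which speaks of extravasated cells, and the groups were therefore taken from the extravasation field and source name. The titles hold 1 number for both extravasated libraries and another for both others, and its meaning and the group cannot be told apart. The labels do not name separate cultures for the 2 libraries of a group. The p-values therefore cover the spread among these libraries alone, and that spread may be technical.

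TGF-beta ligands are made as latent dimers that must be released before they can act. The active dimer binds the type II receptor TGFBR2, which recruits and phosphorylates the type I receptor TGFBR1, a kinase that in turn phosphorylates SMAD2 and SMAD3. These join SMAD4 and enter the nucleus to control target genes, where SKI and SKIL (also called SnoN) bind the SMADs and repress transcription. SKIL protein is degraded when the pathway is switched on, and its gene is itself a SMAD target. TGF-beta slows the growth of normal pigment cells. Melanoma cells often escape this brake, produce the ligands themselves and are known for high levels of SKI.

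RNA was polyA-selected and read counts were deposited per gene, with 11705904 to 19674733 counts per library. Levels are given as CPM, read counts scaled to a common library size with TMM factors. Across genes, the Pearson correlation of log2 CPM was at least 0.979 within a group and 0.934 to 0.945 between groups. All 9 pigment cell markers were detected, with a summed level of 31862 and 30896 CPM in the extravasated and 29594 and 24252 CPM in the other libraries. Of these, Mitf (-1.20) and Tyr (-0.60) were called lower and Sox10 (0.77), Pmel (0.76) and Gpr143 (0.81) higher. Of all tested genes, 25.9% were called lower and 19.1% higher. With the GC and length correction described below, Mitf (-0.11), Sox10 (0.28) and Pmel (0.42) were not called. Tyr (0.77), Mlana (0.76) and Gpr143 (0.73) were then called higher, beside 8.24% of all tested genes. The sign of Tyr thus turned with the correction. Markers of other cell types had much lower sums. These are mouse genes counted on the mouse genome, so low sums do not tell whether cells of the zebrafish were present. The 5 endothelial markers summed to 0.984 and 0.474 CPM in the extravasated and 0.0868 and 0.405 CPM in the other libraries. Of these, 4 of the 5 were without a read in any library. The 6 fibroblast markers summed to 8.51 to 11.3 CPM, with Dcn and Lum at 0. Among them Col1a1 was measured at 6.74 and 7.16 CPM in the extravasated and 3.73 and 4.05 CPM in the other libraries. The 5 leukocyte markers summed to 3.63 to 4.69 CPM, with 4 of the 5 at 0. In bulk RNA, fewer cells of a type and less RNA per cell cannot be told apart. A property of the RNA moved with the group: over 11131 nuclear coding genes, Spearman's rho between the log2 fold change and the GC content of the transcript was 0.743, a description across genes, which are not independent.

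None of the 10 genes was higher in the extravasated libraries and 4 were lower: Skil, the repressor, by 4.10-fold, Tgfbr1, the type I receptor, by 3.11-fold, Tgfb2, a ligand, by 2.66-fold and Smad2, a transducer, by 1.57-fold. A gene was called where its adjusted p was under 0.05 (edgeR's quasi-likelihood test, two-sided, Benjamini-Hochberg adjustment over all 12320 tested genes). Of all tested genes, 25.9% were called lower and 19.1% higher, so that lower genes were common in this comparison. The members' 40% lower and 0% higher stand beside those shares. Their median log2 fold change of -0.02 was the same to 2 decimals as the -0.02 of all tested genes, and the other 6 genes lay between -0.08 and 0.40. In each role 1 member was lower and at least 1 other was not called: Tgfb2 but not Tgfb1 or Tgfb3, Tgfbr1 but not Tgfbr2, Smad2 but not Smad3 or Smad4, and Skil but not Ski. The same 4 genes were called lower with RLE factors, upper quartile factors, unscaled library totals, DESeq2, limma-voom and either other expression filter. Leaving out 1 library changed 2 member calls: Smad2 was not called without extravasated library 1 (-0.61) or library 2 (-0.56), and Tgfb1 was called higher without non-extravasated library 1 (0.58). In 4 of the 10 genes both extravasated libraries lay below both others (39.0% of all tested genes did), and in another 4 both lay above (37.3% of all). With 2 libraries a group, an exact permutation test of 1 value cannot go below a two-sided p of 0.333, so the tests used here borrow their spread from all genes.

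**Figure D1:**
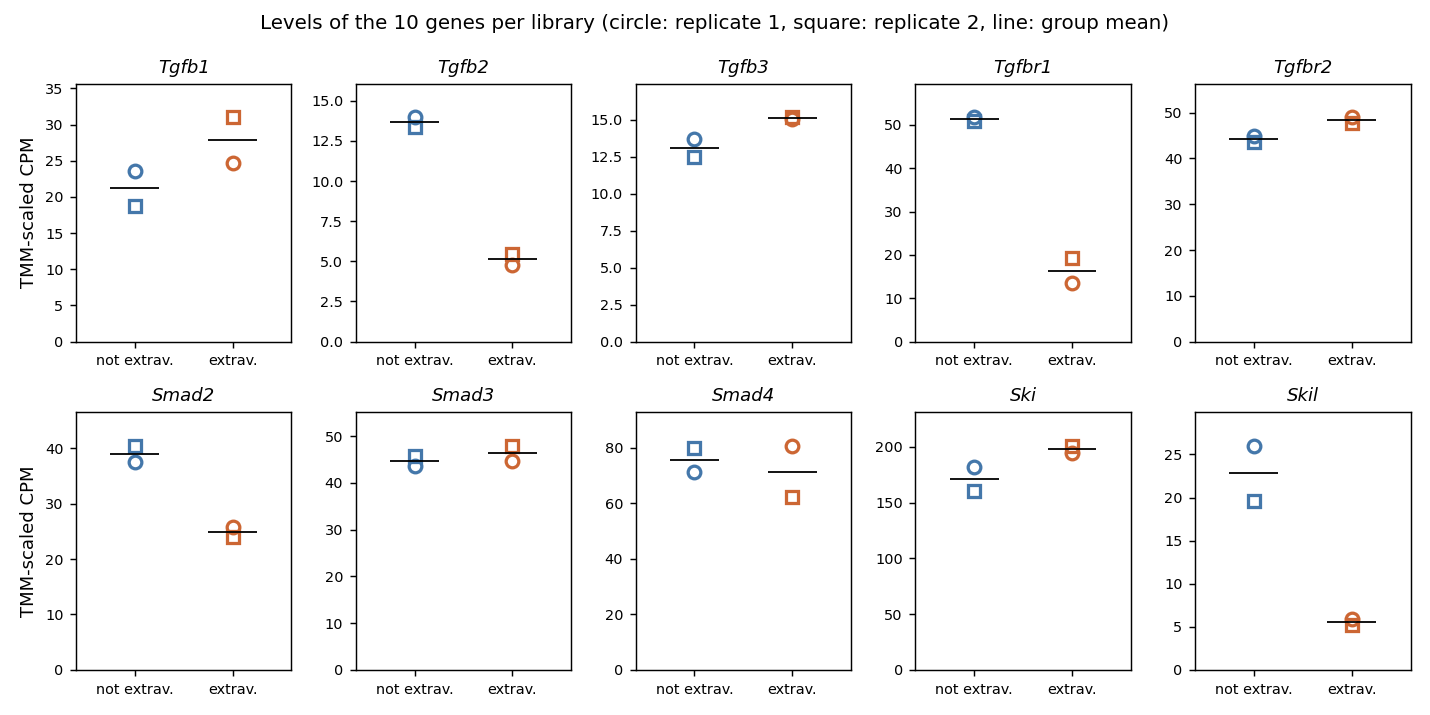
Level of each of the 10 genes in each library in TMM-scaled CPM (linear axes from 0), with circles for replicate 1, squares for replicate 2, and a line at each group's mean. The libraries of the 2 groups lie apart for Tgfb2, Tgfbr1, Smad2 and Skil, which are lower in the extravasated cells, and overlap for Smad3 and Smad4 only.

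Among the ligands, Tgfb2 (chromosome 1, 186622792 to 186705989, minus strand, GRCm38) was the only one of 3 called. It measured 4.77 and 5.48 CPM in extravasated libraries 1 and 2, and 14.0 and 13.4 CPM in non-extravasated libraries 1 and 2. Both extravasated libraries were low and the groups did not overlap. The means were 5.12 ± 0.499 and 13.7 ± 0.430 CPM (SD, n = 2 each), a log2 fold change of -1.41 ± 0.22 (SE; edgeR, Benjamini-Hochberg adjusted p = 0.00289). These levels rest on 63 and 104 reads in the extravasated and 161 and 231 in the other libraries. Tgfb2 shares 124 exonic bases (2.14% of its exons) with the antisense gene Gm29491, and whether the reads were counted by strand was not given in the sources used here.

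Tgfb1 (chromosome 7, 25687002 to 25705077, plus strand), the ligand most widely made by cells, was measured at 24.8 and 31.0 CPM in the extravasated and 23.6 and 18.7 CPM in the other libraries. The extravasated libraries were the higher ones, but the lower of them exceeded the higher control by little, and the difference was not called (log2 fold change 0.40 ± 0.20, adjusted p = 0.131). Without non-extravasated library 1 it was called at 0.58 (adjusted p = 0.0196). Tgfb3 (chromosome 12, 86056745 to 86079041, minus strand), another ligand of the same family, was measured at 15.1 and 15.2 CPM against 13.7 and 12.5 CPM, and was not called (0.21 ± 0.19, adjusted p = 0.400). Its libraries did not overlap by group, with a gap of 0.14 on the log2 scale between the nearest pair. Tgfb3 shares 163 exonic bases with Gm37804 and 257 with Gm48008, both on the other strand. Over whole transcripts, the longest identical run between any 2 of the 10 genes was 28 bases, between Tgfb2 and Ski, and 15 bases between any 2 ligands.

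Of the receptors, Tgfbr1 (chromosome 4, 47353222 to 47414931, plus strand), the type I kinase that phosphorylates SMAD2 and SMAD3, was lower in the extravasated cells. Its level was 13.6 and 19.2 CPM there and 51.7 and 50.8 CPM in the others. On the log2 scale, extravasated library 1 minus library 2 was -0.50, and the nearest pair of libraries across groups still differed by -1.40 (extravasated minus not). The log2 fold change was -1.64 ± 0.20 (means 16.4 ± 4.01 and 51.3 ± 0.654 CPM, adjusted p = 0.00121). Tgfbr2 (chromosome 9, 116084293 to 116175360, minus strand), the type II receptor that binds ligand first, was nearly level at 49.0 and 47.8 CPM against 44.9 and 43.7 CPM (0.13 ± 0.14, adjusted p = 0.474). The ratio of Tgfbr2 to Tgfbr1, each per kilobase of its transcript, was 5.99 and 4.11 in the extravasated and 1.44 and 1.42 in the other libraries. With the longest coding transcripts the ratio was 2.57 and 1.77 against 0.617 and 0.612, so which receptor was the more abundant in the control cells depended on the transcript, while the ratio was higher in the extravasated libraries with either. These ratios were computed without the GC and length correction described below. With it Tgfbr2 stood at 45.0 and 42.8 against 49.4 and 48.2 CPM, and Tgfbr1 at 21.9 and 29.9 against 28.1 and 37.2 CPM. By these levels the ratio overlapped between the groups.

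Of the transducers, 1 of 3 was called. Smad2 (chromosome 18, 76241580 to 76310963, plus strand), a receptor-activated SMAD, was measured at 25.7 and 24.0 CPM in the extravasated and 37.5 and 40.5 CPM in the other libraries, without overlap. It was called lower (log2 fold change -0.65 ± 0.15, adjusted p = 0.0118), with means of 24.9 ± 1.22 and 39.0 ± 2.13 CPM. That call was lost without extravasated library 1 (-0.61, adjusted p = 0.0811) and without extravasated library 2 (-0.56, adjusted p = 0.121). Smad3 (chromosome 9, 63646767 to 63757994, minus strand), its close relative, which unlike SMAD2 binds DNA directly, overlapped between groups at 44.6 and 48.0 against 43.7 and 45.7 CPM (0.05 ± 0.14, adjusted p = 0.786). Smad4 (chromosome 18, 73639009 to 73703780, minus strand), the partner shared with the BMP branch, also overlapped, at 80.9 and 62.1 against 71.4 and 79.9 CPM (-0.08 ± 0.16, adjusted p = 0.702). The sign of Smad4 turned with upper quartile factors and that of Smad3 with unscaled totals, so neither has a direction here. Per kilobase, the ratio of Smad3 to Smad2 was 2.75 and 3.17 in the extravasated and 1.85 and 1.79 in the other libraries. These ratios were computed without the GC and length correction described below. With it Smad2 stood at 35.0 and 37.8 against 23.5 and 30.1 CPM, and Smad3 at 43.5 and 46.7 against 44.0 and 47.7 CPM. By these levels the ratio was the lower one in the extravasated libraries.

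Of the repressors, Skil (chromosome 3, 31095058 to 31122577, plus strand) had the lowest fold change of the 10 genes. It measured 5.91 and 5.21 CPM in the extravasated and 26.0 and 19.6 CPM in the other libraries, from 78, 99, 300 and 338 reads. The 2 non-extravasated libraries differed by 0.41 on the log2 scale, and the nearest pair across groups differed by -1.73 (extravasated minus not). The log2 fold change was -2.04 ± 0.23 (means 5.56 ± 0.490 and 22.8 ± 4.58 CPM, adjusted p = 0.00104). Ski (chromosome 4, 155154075 to 155222592, minus strand), the founding member of the repressor family, was by far the more abundant at 194.8 and 201.1 against 182.0 and 160.1 CPM. It was slightly higher in both extravasated libraries and was not called (0.21 ± 0.13, adjusted p = 0.201). Per kilobase, Skil made up 5.45% and 4.70% of the summed level of both repressors in the extravasated libraries and 21.4% and 18.8% in the others. With the longest coding transcripts these shares were 2.43% and 2.09% against 10.5% and 9.13%.

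The repressor pair shows how differently 2 relatives can be composed. A stretch of 90 coding bases from exon 1 of each is given 5′ to 3′ on the gene's strand (GRCm38), with capitals at the 22 positions that differ. The stretches were chosen as the pair with the most identical bases, among all in-frame stretches of that length within an exon. Their identity is therefore a maximum and does not describe the whole coding sequences.
Ski, chr4:155222050-155222139, minus strand: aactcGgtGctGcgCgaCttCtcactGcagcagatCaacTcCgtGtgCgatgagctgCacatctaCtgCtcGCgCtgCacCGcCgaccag
Skil, chr3:31097835-31097924, plus strand: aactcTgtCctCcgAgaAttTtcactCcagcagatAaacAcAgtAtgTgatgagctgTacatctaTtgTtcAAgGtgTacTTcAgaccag
The stretches were identical at 68 of 90 bases (75.6%). At 17 of the 22 differing positions Ski had G or C where Skil had A or T, and at 0 the reverse, so that the GC content was 61.1% in Ski and 42.2% in Skil. At the last position of codons over the whole coding sequence, where many changes are silent, GC was 76.6% in Ski and 52.0% in Skil.

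**Figure D2:**
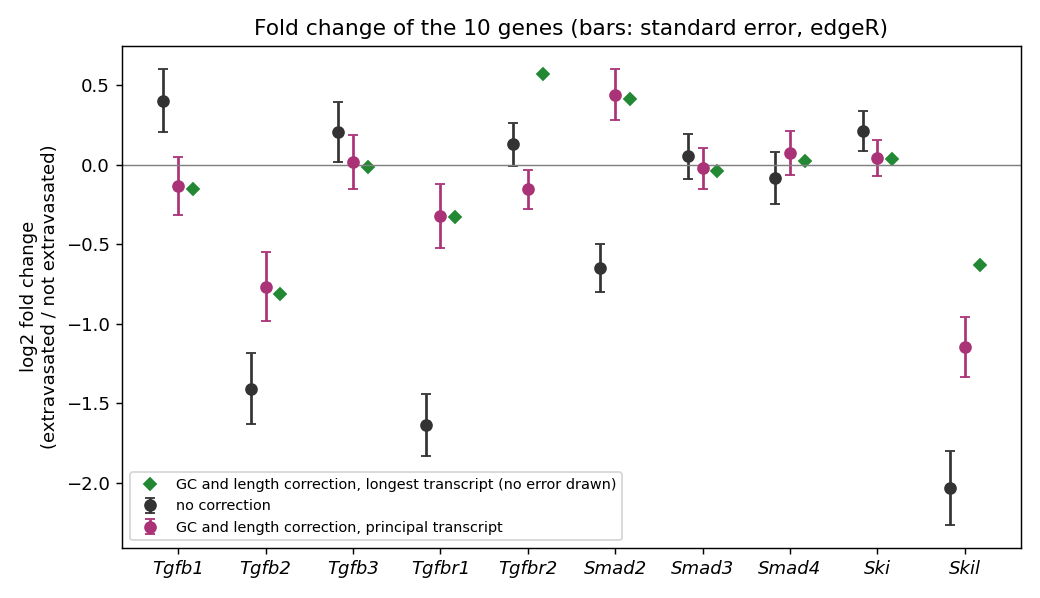
Log2 fold change (extravasated over not extravasated) of each of the 10 genes with its standard error, from the test without correction and with the GC and length correction. Skil, Tgfbr1, Tgfb2 and Smad2 lie below 0 without correction, and with it Skil stays at -1.15 while Tgfbr1 moves to -0.32 and Smad2 to 0.44.

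The 4 genes that were lower were the 4 with the lowest transcript GC content of the 10. GC was 41.0% in Tgfbr1, 43.7% in Skil, 44.9% in Smad2 and 46.9% in Tgfb2, and 49.4% to 62.5% in the 6 genes that were not called. Across the 10 genes, Spearman's rho of log2 fold change with GC content was 0.94 and with transcript length -0.30 (n = 10 genes that share the same 4 libraries, a description). The members took their place in a pattern of all genes. Of the 3881 tested genes with a GC content up to that of Tgfb2, 63.8% were called lower and 1.03% higher, with a median log2 fold change of -0.99. Of the 8426 with a higher GC content, 8.45% were lower and 27.5% higher, with a median of 0.26. The bases after the coding sequence, which make up most of the Tgfbr1, Smad2 and Tgfb2 transcripts, had a GC content of 38.8% in Tgfbr1, 41.9% in Smad2, 40.1% in Tgfb2 and 37.5% in Skil. Smad4, which was not called, had 39.5% there.

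Fold changes were therefore also computed after the trend with GC content and length had been taken out of each library. The offset for that was a smooth curve over all nuclear genes, based on the transcript annotated as principal. After it, rho with GC content over the 11131 genes was 0.012. Skil alone of the 10 genes was then called (1 lower, 0 higher), against 5.80% lower and 8.24% higher among all tested genes. The median of the 10 genes was -0.08 and that of all tested genes 0.04.

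With the correction Skil measured 7.70 and 7.36 CPM in the extravasated and 18.2 and 15.2 CPM in the other libraries. Its log2 fold change was -1.15 ± 0.19 (edgeR with offset, adjusted p = 0.0121). The fold change of Skil was -1.16 without extravasated library 1 and -1.10 without extravasated library 2. The call was lost at both settings, where few of all genes were called. It was also lost when the longest coding transcript stood in for the principal one (-0.63, adjusted p = 0.0590). The longest has 6717 bases with a GC content of 41.0%, and the principal one 2904 bases. Tgfb2 still stood apart, at 5.56 and 7.28 against 10.9 and 11.1 CPM, and missed the threshold narrowly (-0.77 ± 0.22, adjusted p = 0.0563). It was called when longest transcripts were used for all genes (-0.81, adjusted p = 0.0482), though its own longest transcript is its principal one. Tgfb2 stood at -0.59 without extravasated library 1 and at -0.97 without extravasated library 2. The values were -0.77 without non-extravasated library 1 and -0.74 without non-extravasated library 2. Of these settings only the one without non-extravasated library 1 gave a call. For these 2 genes, all pairs of libraries kept the direction seen without correction.

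Tgfbr1 and Smad2 did not keep theirs in the same way. Tgfbr1 overlapped between groups after the correction, at 21.9 and 29.9 against 28.1 and 37.2 CPM (-0.32 ± 0.20, adjusted p = 0.308). Without non-extravasated library 1 it was called lower (-0.51, adjusted p = 0.0418). Smad2 came out higher in both extravasated libraries, at 35.0 and 37.8 against 23.5 and 30.1 CPM, not called (0.44 ± 0.16, adjusted p = 0.109), and it was called higher without non-extravasated library 2 (0.63, adjusted p = 0.0170). The other 6 genes lay between -0.15 and 0.07. Tgfbr2 was called higher at 0.57 (adjusted p = 0.0288) with its longest coding transcript of 8092 bases, and lay at -0.15 with its principal one of 3476 bases. Which of these transcripts the cells express was not tested, nor was the part of the GC trend in the uncorrected differences.

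**Figure D3:**
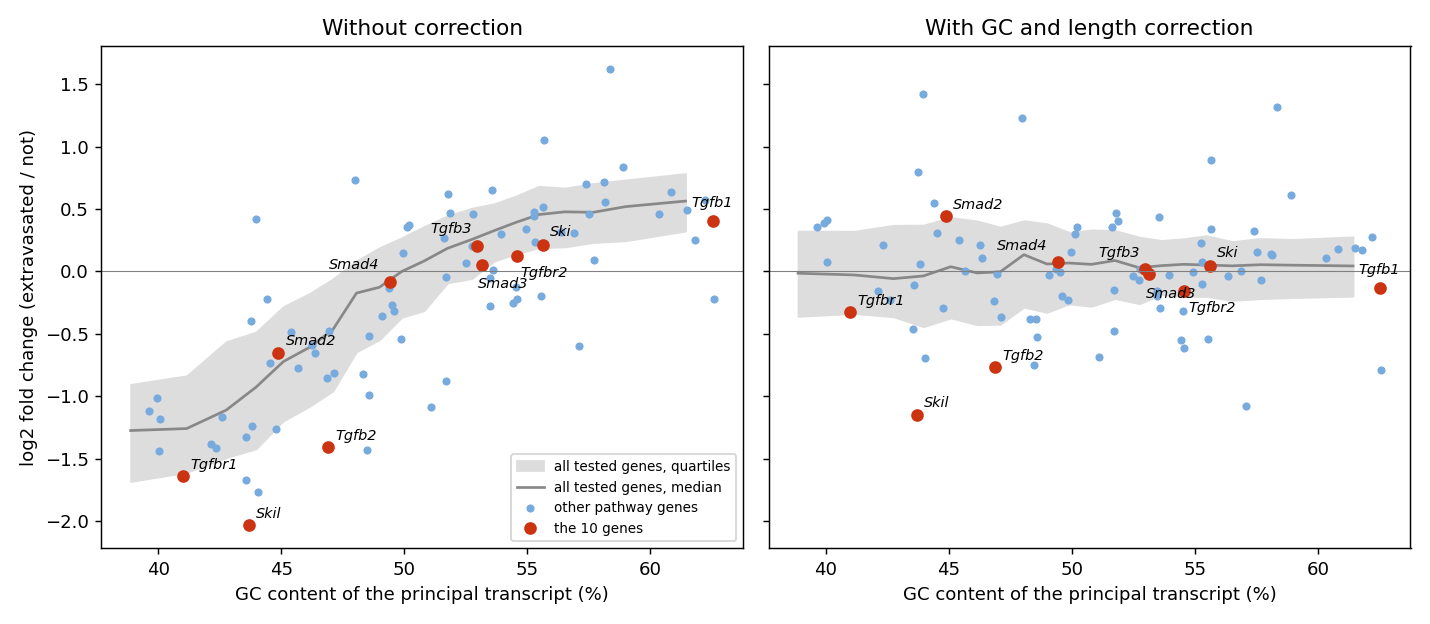
Log2 fold change against the GC content of the principal transcript, without (left) and with (right) the GC and length correction, for the 10 genes (red), the other pathway genes (blue) and all tested genes (line for the median and band for the quartiles of bins of equal size). On the left Skil (43.7% GC) and Tgfb2 (46.9% GC) lie below the band, Tgfbr1 at its lower edge and Smad2 inside it, and on the right Skil and Tgfb2 remain below it.

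Composition was also read at the starts of the genes. Promoter windows of 300 bases (250 before and 50 from the start) were available for 6 of the 10 genes from RefSeq (GRCm38.p6), 7 windows in all, as Tgfbr1 has 2 starts. Of the called genes, Tgfb2 and Tgfbr1 were among them, and the Tgfb2 window and that at the upstream Tgfbr1 start are printed 5′ to 3′ on the gene's strand, with CAGAC, a short motif that SMAD3 and SMAD4 bind, and its reverse complement GTCTG in capitals.
Tgfb2, chr1:186705940-186706239, minus strand: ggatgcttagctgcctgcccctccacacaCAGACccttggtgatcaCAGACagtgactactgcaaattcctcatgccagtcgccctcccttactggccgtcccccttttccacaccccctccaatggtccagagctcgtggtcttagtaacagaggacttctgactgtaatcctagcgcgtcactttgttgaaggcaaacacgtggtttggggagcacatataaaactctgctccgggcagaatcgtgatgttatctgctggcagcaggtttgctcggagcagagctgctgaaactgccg
Tgfbr1, chr4:47352972-47353271, plus strand: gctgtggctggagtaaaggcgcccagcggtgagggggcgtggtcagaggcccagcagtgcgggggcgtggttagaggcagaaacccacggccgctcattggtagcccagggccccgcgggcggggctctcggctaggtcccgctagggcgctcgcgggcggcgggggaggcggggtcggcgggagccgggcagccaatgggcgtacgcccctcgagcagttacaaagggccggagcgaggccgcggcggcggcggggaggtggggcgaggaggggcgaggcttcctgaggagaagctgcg
The upstream Tgfbr1 window was 74.7% GC with 34 CG dinucleotides, and the window at the other start (chromosome 4, 47385966 to 47386265) 52.0% with 3. The Tgfb2 window was 54.3% GC with 10 CG dinucleotides, close to the median of all 32851 windows (52.7% and 7). It held CAGAC 2 times, the upstream Tgfbr1 window held neither form, and the other Tgfbr1 window held 1. Of all windows, 49.6% held at least 1 on either strand, so a match is common, and it is a description only.

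Levels of different genes were compared per kilobase of the principal transcript, as CPM per kilobase without the GC and length correction. In the non-extravasated libraries Ski was highest (mean 31.0), followed by Smad4 (22.4) and Tgfbr2 (12.7). Tgfb1 (9.74), Tgfbr1 (8.91), Smad3 (8.77) and Skil (7.85) came next, each overlapping its neighbour in range, so their order is not resolved. Smad2 (4.82), Tgfb3 (3.87) and Tgfb2 (2.67) closed the order. In these cells the repressor Ski and the shared SMAD4 thus had more transcript per kilobase than any ligand or receptor of the set.

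In the extravasated libraries the top of the order was the same, with Ski at 35.9, Smad4 at 21.1, and Tgfbr2 (13.9) and Tgfb1 (12.8) overlapping. Smad3 (9.09) and Tgfb3 (4.47) followed, then Smad2 (3.08) and Tgfbr1 (2.85), which overlapped, Skil (1.91) and Tgfb2 (1.0). Tgfbr1 and Skil, level with Tgfb1 and Smad3 in the control cells, stood below Tgfb3 here. With the longest coding transcripts Skil was already below Tgfb3 in the control cells (means 3.39 and 3.87). Tgfb1 made up 67.9% and 72.0% of the summed ligand level per kilobase in the extravasated and 61.5% and 57.7% in the other libraries, while the share of Tgfb2 was 5.56% and 5.40% against 15.5% and 17.5%. Tgfbr1 made up 14.3% and 19.6% of the receptors against 41.0% and 41.3%, and with the longest coding transcripts 28% and 36.1% against 61.8% and 62.0%. All these shares are without the GC and length correction, with which the levels of Tgfbr1 overlapped between the groups. Using the longest coding transcripts moved the rank of 7 genes in the non-extravasated and 5 in the extravasated order, Ski and Smad4 staying on top in both.

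**Figure D4:**
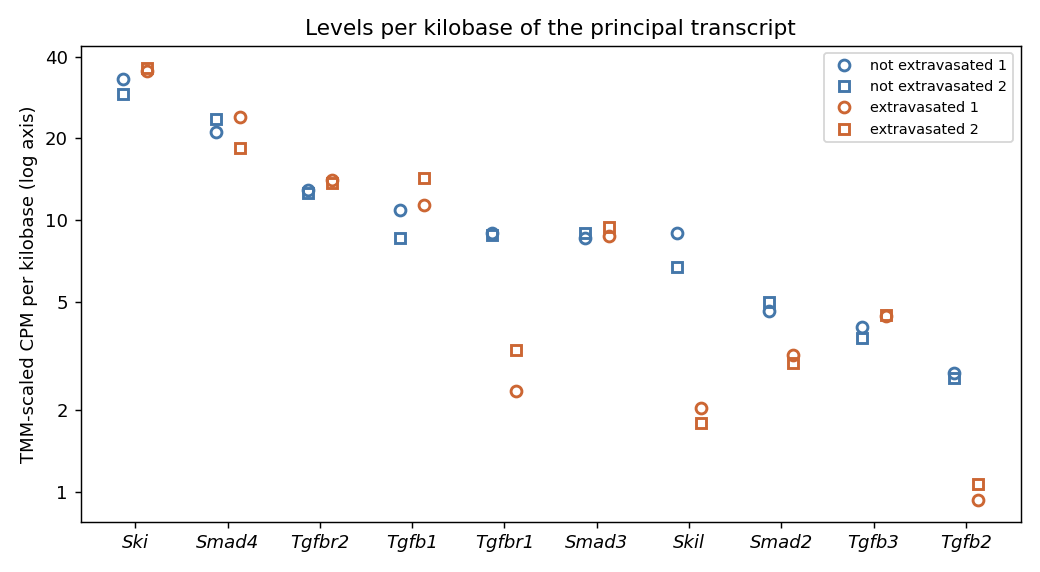
Level per kilobase of principal transcript (TMM-scaled CPM per kilobase, log axis, without the GC and length correction) of the 10 genes in each library, by group. Ski lies highest (means 35.9 and 31.0) and Tgfb2 lowest (1.0 and 2.67) in both groups, and Tgfbr1 and Skil are the genes that drop furthest down the order in the extravasated cells.

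The rest of the pathway was read from 7 lists with 100 genes in all. Of these, 76 could be tested, 10 were higher and 21 lower in the extravasated libraries (13.2% and 27.6%, beside 19.1% and 25.9% of all tested genes). Upper quartile factors gave 20 higher and 20 lower, and leaving out 1 library gave 0 to 20 higher and 10 to 26 lower, the fewest without extravasated library 2. The 21 lower genes had a transcript GC content of 39.6% to 51.7% and the 10 higher genes 50.1% to 61.5%. After the GC and length correction 4 were higher and 2 lower (5.26% and 2.63%, beside 8.24% and 5.80% of all tested genes). The median log2 fold change was then 0.01 in place of -0.17. The correction left 0 calls of either direction without extravasated library 1 or library 2.

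The genes that store and release the ligand and those close to the receptors moved both ways. Of 9 tested genes of the latent complex 3 were higher and 1 lower (33.3% and 11.1%, beside 19.1% and 25.9% of all tested genes). Itgav, the integrin subunit that binds latent TGF-beta, was measured at 30.8 and 33.1 CPM in the extravasated and 112 and 91.7 CPM in the other libraries (log2 fold change -1.67, edgeR adjusted p = 0.000719). Ltbp3, a latent TGF-beta binding protein (0.49, adjusted p = 0.0254), and Furin, which cleaves the precursor (0.46, adjusted p = 0.0254), were higher, but not without extravasated library 2 (0.39 and 0.43, adjusted p = 0.175 and 0.148). Lrrc32, an anchor of latent TGF-beta with only 5 to 24 reads a library (1.62, adjusted p = 0.0460), lost its call without any 1 library (1.33 to 1.91). With the GC and length correction the list had 0 higher and 0 lower calls, beside 8.24% and 5.80% of all tested genes. Itgav then stood at -0.46, Ltbp3 at 0.19, Furin at 0.11 and Lrrc32 at 1.32. Ltbp2, Fbn1 and Itgb6 had no read, and Itgb8 had 0 to 11.

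Of 10 co-receptors and receptor regulators 2 were higher and 4 lower (20% and 40%, beside 19.1% and 25.9% of all tested genes). Cd109, a surface inhibitor of the receptors, was lower (-1.26, adjusted p = 0.00129), as were Dab2, an adaptor between receptors and SMADs (-0.77, adjusted p = 0.0139), and Tgfbr3, betaglycan, which presents the Tgfb2 protein to the receptors (-0.99, adjusted p = 0.0222). Tgfbr3 stood at 5.45 and 3.79 against 8.77 and 9.43 CPM, so without correction the ligand Tgfb2 and its co-receptor were both lower. With the GC and length correction Tgfbr3 was not called (-0.53, edgeR with offset, adjusted p = 0.181). Cd109 (-0.29) and Dab2 (0.0041) were not called either. The list then had 2 higher and 0 lower calls (20% and 0%, beside 8.24% and 5.80% of all tested genes). Without the correction, Hgs, an endosomal partner of the SMAD anchor SARA, was higher (0.56, adjusted p = 0.00868), and with it Hgs was not called (0.13). Without extravasated library 1 there was no call for Dab2 (-0.59) or Tgfbr3 (-1.17), and without extravasated library 2 none for Dab2 (-0.82), Tgfbr3 (-0.70) or Hgs (0.54). The other two calls were Zfyve9, which encodes SARA, lower, and Fkbp1a, higher, both named after their values were seen. The list had 1 higher and 1 lower call without extravasated library 1, and 0 and 1 without library 2.

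Each of the neighbouring branches had 1 lower call (20% of the tested activin and nodal genes and 25% of the BMP-branch SMADs). Of all tested genes 25.9% were lower. Of 14 activin and nodal genes 7 had no read, which allows up to 0.256 CPM in the smallest library (3 counts, counting error only), Inhba and Fst had at most 3, and 5 could be tested. Acvr2a, an activin type II receptor, was lower (-1.02, adjusted p = 0.0472), but not without extravasated library 1 (-0.69), extravasated library 2 (-1.25) or non-extravasated library 1 (-0.51), nor with limma-voom (-0.90, adjusted p = 0.0686), and it stood at 0.39 with the correction. Fstl3 (-0.59), Acvr2b (-0.25) and Gdf11 (0.07) were not called, though Fstl3 was without non-extravasated library 1 (-1.05, adjusted p = 0.0122). Of the 4 SMADs of the BMP branch, Smad5, a relative of Smad2, was lower at 65.7 and 55.9 against 104 and 98.1 CPM (-0.74, adjusted p = 0.00547), though not without extravasated library 2 (-0.58, adjusted p = 0.0704). Like Smad2 it stood above 0 with the correction (0.31, adjusted p = 0.117). Smad9 (0.73), Smad6 (0.64) and Smad1 (-0.32) were not called. Smad9 was called higher with the correction (1.23, adjusted p = 0.0235) and with upper quartile factors (0.82, adjusted p = 0.0411), and Smad6 without non-extravasated library 1 (0.78, adjusted p = 0.0394).

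**Figure D5:**
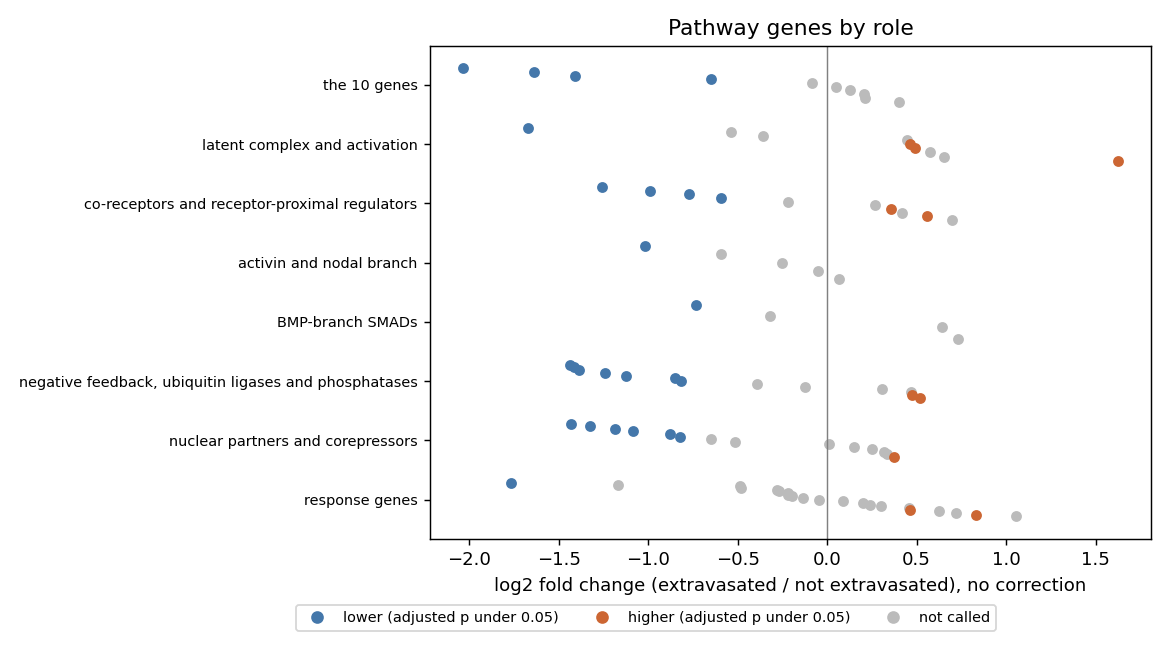
Log2 fold change without correction of every tested gene, in rows by role, with calls at an adjusted p under 0.05 in colour. The ubiquitin ligases and phosphatases hold 7 lower calls of 13 and the nuclear partners 6 of 14 (25.9% of all tested genes were lower), and the response genes 3 calls of 21.

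Ubiquitin ligases, phosphatases and feedback inhibitors held 7 lower and 2 higher calls among 13 tested genes (53.8% and 15.4%, beside 25.9% and 19.1% of all tested genes). With the correction there were 0 lower and 1 higher (0% and 7.69%, beside 5.80% and 8.24% of all tested genes). The lower calls without it included the SMAD4 ligase Trim33 (-1.24, adjusted p = 0.00200), the ligases Itch (-1.38, adjusted p = 0.00205) and Smurf2 (-0.82, adjusted p = 0.00344), and Usp15 (-1.42, adjusted p = 0.00284), a deubiquitinase known to sustain the receptors. With the correction these 4 stood at 0.06, -0.16, -0.37 and 0.21, none called. Smad7 (0.31, adjusted p = 0.233) and Pmepa1 (-0.12, adjusted p = 0.523), which the pathway induces and which dampen it, were not called. Without extravasated library 2 the list had 3 lower calls, without Smurf2 (-0.69, adjusted p = 0.0546), and 0 higher, and without extravasated library 1 it had 5 and 0. The 2 higher genes were Smurf1 and Wwp2, named after their values were seen, and Ldlrad4 had 0 to 2 reads. Nuclear partners were lower in 6 of 14 and higher in 1 (42.9% and 7.14%, beside 25.9% and 19.1% of all tested genes). The higher one was Hdac3, also named afterwards. The corepressor Ncor1, which works with SKI, was measured at 159 and 128 against 391 and 381 CPM (-1.43, adjusted p = 0.000776), and Sp1 (-1.33, adjusted p = 0.00104), Sp3 (-1.19, adjusted p = 0.00299) and the coactivator Ep300 (-1.08, adjusted p = 0.00222) were lower too. These 4 calls held with each library left out, while the list had 0 higher and 4 lower calls without extravasated library 2. Those results are without the GC and length correction. With it Ncor1 (-0.75) and Ep300 (-0.69) were still called lower, while Sp1 (-0.11) and Sp3 (0.07) were not called. The list then had 2 lower and 0 higher calls (14.3% and 0%, beside 5.80% and 8.24% of all tested genes). Foxh1 had 0 to 2 reads and Runx3 none.

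Of 21 tested genes known to respond to TGF-beta, 2 were higher and 1 lower. These are 9.52% and 4.76%, beside 19.1% and 25.9% of all tested genes. Zeb2, a repressor of epithelial genes, was lower at 70.9 and 81.2 against 321 and 196 CPM (-1.76, adjusted p = 0.00324). Itga5 (0.46, adjusted p = 0.0232) and Col1a1 (0.83, adjusted p = 0.0351) were higher. Col1a1 is also one of the fibroblast markers, of which Pdgfra was lower (-1.46, adjusted p = 0.0221), and their part in the result was not tested. Both calls were lost without extravasated library 2 (0.41 and 0.83), and that of Col1a1 also without library 1 (0.97) and with DESeq2 (0.87). Ccn2 stood at 75.6 and 75 against 64.6 and 33.6 CPM (0.62, adjusted p = 0.151) and was called without non-extravasated library 1 (1.17), with DESeq2 (0.66), without an expression filter (0.64) and with the title suffix term (0.69). Klf10 (-0.48) and Timp1 (0.46) were not called, and both were without non-extravasated library 1 (-0.54 and 0.62). Klf10 was also called with the title suffix term (-0.49) and Timp1 with upper quartile factors (0.56). With 1 library left out, the list had 0 to 8 higher and 1 to 4 lower calls, the most without non-extravasated library 1. With the GC and length correction and all libraries, the list had 0 higher and 0 lower calls, beside 8.24% and 5.80% of all tested genes. Zeb2 then stood at -0.70, Itga5 at 0.16 and Col1a1 at 0.61. Tgfbi, Snai1, Zeb1, Acta2, Tagln and Mmp9 had 0 to 4 reads per library, and Cdkn2b and Twist1 none.

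With the GC and length correction the calls outside the 10 genes were few: Ncor1 (-0.75, adjusted p = 0.0109) and Ep300 (-0.69, adjusted p = 0.0204) lower, and Smad9, Bambi, Strap and Ppm1a higher, the last 3 named after their values were seen. Strap and Ppm1a lay below 0 without the correction (-0.22 and -0.39) and above 0 with it (0.55 and 0.79). Itgav (-0.46, adjusted p = 0.0539; -0.48, adjusted p = 0.0486 with longest transcripts) missed the threshold narrowly, as Tgfb2 did. Zeb2 stood at -0.70 (adjusted p = 0.0548), but at -0.15 (adjusted p = 0.440) with its longest transcript. Beside Skil, Ncor1 was thus another corepressor with a lower level after the correction.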

How the data were processed

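PolyA RNA of 4 B16-F10 libraries was sequenced from stranded TruSeq libraries, per the labels' protocols. The authors deposited raw counts, whole numbers of reads for each gene without normalization. Per the submitters' processing notes, bcl2fastq 2.18.0.12, STAR 2.5.3a and the GRCm38 build were used. For the read counter, its annotation and its strand setting, nothing was given in the sources. Of 53465 identifiers, 53360 matched the GENCODE M21 annotation (GRCm38) when the version was ignored, and 105 did not match.

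The counts were tested with edgeR 4.0.16 in R 4.3.3: filterByExpr with a minimum count of 10 and a total of 15, TMM scaling, a robust quasi-likelihood fit on the group alone and a two-sided test, with Benjamini-Hochberg adjustment over 12320 genes and a threshold of 0.05. Standard errors came from the fold change and its F statistic. CPM values were computed from the counts with TMM factors. For the correction, each library's deviation in log2 CPM (prior count 2) was smoothed against transcript GC content and log2 length (mgcv 1.9.3, basis size 10, mitochondrial genes left out) and entered as an offset. Transcript properties came from the coding transcript tagged APPRIS principal, or the longest one as an alternative, and were known for 99.9% of tested genes.

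The 10 genes, the pathway lists and the tests were chosen with earlier results of these data known. The genes named by rule were the 10 genes, up to 4 tested genes per list with the smallest p, Smad7, Tgfbi, Pmepa1, Ccn2, Klf10 and Tgfbr3, and list genes that could not be tested. Some items are not reported here. Alternatives were RLE and upper quartile factors, unscaled totals, DESeq2 1.42.0, limma-voom (limma 3.58.1), no expression filter, a filter at 1 CPM in 2 libraries, a fit that is not robust, a term for the kind of title suffix, and each library left out, with and without the correction. With a library left out, the lone library of its group is assumed to vary like the other group.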

Additional observations from a re-analysis of the deposited data

How the results depend on the processing

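The 4 lower calls (Tgfb2, Tgfbr1, Smad2, Skil) and the absence of higher calls among the 10 genes held under every other normalisation, tool, filter and term tried. With upper quartile factors 20 other pathway genes were higher and Smad4 stood at 0.0049, and with unscaled totals Smad3 stood at -0.0051. With the GC and length correction 0 of the 10 genes were higher and 1 lower, 4 other pathway genes were higher and 2 lower, and 1015 of all genes were higher and 714 lower. With longest transcripts these counts were 1 and 1, 5 and 3, and 996 and 673. Among the genes named by rule, fold changes that turned sign with the correction, given for principal and then longest transcripts, were Tgfb1 (-0.13, -0.15), Smad2 (0.44, 0.41), Smad3 (-0.022, -0.041), Smad4 (0.073, 0.024), Acvr2a (0.39, 0.39), Gdf11 (-0.036, -0.064), Smad5 (0.31, 0.28), Trim33 (0.058, 0.038), Usp15 (0.21, 0.20) and Sp3 (0.073, 0.060). Of the genes named by rule, only with principal transcripts Tgfbr2 (-0.15) and Dab2 (0.0041) turned, and only with longest ones Tgfb3 (-0.014), Timp1 (-0.018) and Smad7 (-0.0050). Pathway genes outside that rule turned too. Among them, with principal transcripts, were Wwp1 (-1.12 to 0.35), Usp9x (-1.44 to 0.41), Zfyve9 (-0.59 to 0.21), Strap (-0.22 to 0.55) and Ppm1a (-0.39 to 0.79). With each library left out in turn, with or without the correction, 0 to 1 of the 10 genes were higher and 0 to 4 lower, 0 to 20 other pathway genes higher and 0 to 26 lower, and 0 to 2758 of all genes higher and 2 to 3541 lower. The fewest came with the correction and without extravasated library 2. Over the same settings the fold changes that turned sign ranged from -0.31 to 0.65 for Tgfb1, -0.042 to 0.31 for Tgfb3, -0.18 to 0.21 for Tgfbr2, -0.71 to 0.63 for Smad2, -0.072 to 0.20 for Smad3, -0.19 to 0.21 for Smad4 and -0.016 to 0.33 for Ski. For the other genes named by rule they ranged from -1.39 to 0.59 for Acvr2a, -1.51 to 0.19 for Fstl3, -0.94 to 0.12 for Acvr2b, -0.18 to 0.24 for Gdf11, -0.77 to 0.37 for Smad5, -0.96 to 0.18 for Dab2, -1.40 to 0.19 for Trim33, -1.63 to 0.079 for Itch, -1.68 to 0.31 for Usp15, -1.39 to 0.12 for Sp1, -1.36 to 0.18 for Sp3, -0.10 to 0.62 for Timp1, -0.11 to 0.43 for Smad7 and -0.59 to 0.092 for Klf10. The cause of these changes was not tested. Tgfb2, Tgfbr1 and Skil kept a negative fold change under every setting. The labels give no replicate numbers shared between the groups, but each group holds 1 title ending in C and 1 ending in another letter. With a term for that suffix the 10 genes had the same calls, and 15 other pathway genes were higher and 25 lower. With 63 to 104 reads of Tgfb2 and 78 to 99 of Skil in the extravasated libraries, counting error limits these genes more than the others.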
